A study of Mus musculus with 22 samples.

Results

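Carbonic anhydrases are the zinc enzymes that interconvert carbon dioxide and bicarbonate, and 8 of their genes (Car6, Car2, Car13, Car3, Car8, Car4, Car9 and Car12) were followed in FE1 cells exposed to Mitsui7, a multi-walled carbon nanotube. The 8 genes are read by 10 of the 55681 probes of the array and belong to a family of 16 genes on it, which were found by matching the accession of each probe to its gene symbol. The family was chosen by the measured values of Car6, which lay close to background in control cells and higher after exposure, so the values of Car6 are given as a description with no p-value. Whether measured values also entered the choice of the other 7 genes is not known.

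FE1 is an epithelial cell line established from the lung of the transgenic MutaMouse. Cells were grown in culture medium with 0 (Control, vehicle), 12.5 (low dose, D1), 25 (medium dose, D2) or 100 (high dose, D3) µg/ml of Mitsui7 for 24 h, and 5, 6, 5 and 6 arrays were measured in these groups. Every array carried the Cy5-labelled RNA of 1 sample against Cy3-labelled Universal Mouse Reference RNA, a mixture from mouse cell lines. All samples come from a single line, and the methods speak of 3 separate experiments for 6 samples per dose. Neither they nor the labels say which samples share an experiment, so arrays of a group may not all be independent, and p-values may then be too small. A value below is the log2 ratio of Cy5 to Cy3 after loess normalisation, and a change is the difference of log2 ratios between groups in limma with slide as a term. A gene was called when its adjusted p was at most 0.05, its change at least 1.5-fold and its probe detected, over the negative control spots, on 4 or more arrays of a group in the comparison.

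The family works by location. Car2, Car3 and Car13 are cytosolic enzymes and Car8 is a related cytosolic protein that lacks the catalytic activity. Car4 is anchored to the outer face of the cell membrane, Car9 and Car12 span it with their enzyme domain outside the cell, and together with bicarbonate and proton transporters they set the pH on both sides of the membrane. Car6 is the secreted member, known from saliva and milk, and an intracellular form of it has been described as a target of the stress factor CHOP, encoded by Ddit3. Car9 and Car12 are known targets of the hypoxia response, and Car4 is known in the lung from the capillary endothelium.

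The arrays differed in quality, and some stood apart. Between 24185 and 38531 probes were detected per array, the limit set by the negative control spots lay between 74.5 and 111 signal units, and 0.401% to 6.22% of spots were set missing. In 6 arrays the profile was closer to the mean of another group than to that of its own. Low dose replicate 1 (r = -0.32 with its own group and 0.46 with the medium dose, after slide effects and the mean of all arrays were taken out) and medium dose replicate 2 (r = -0.33 with its own group) went against their own group. The changes of Car6 and Car12 against control are given with and without both. The counts of the gene and marker lists and the correlations use both arrays. Of the 7 epithelial markers, the keratins Krt7, Krt8, Krt18 and Krt19 were well above background on 20 to 22 arrays. Cdh1 was detected on 0 arrays, and Epcam was well above background on 0 and Cldn4 on 5. The epithelial label thus rests mostly on keratins here. The collagen genes Col1a1, Col1a2 and Col3a1, markers of fibroblasts, were well above background on all 22 arrays. In controls their mean log2 ratios to the reference were 1.77, 1.26 and 1.11. Those of Krt7, Krt8, Krt18 and Krt19 were -0.31, -4.35, -5.62 and -4.91. Such ratios depend on the reference RNA as well.

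Because Car6 is the gene that moved and Car9 the family member best known from hypoxia, the 250 bases before the start site of each are shown first, from the RefSeq promoter table on GRCm38.p6, which held 4 of the 8 genes (Car6, Car4, Car9 and Car12). Capitals mark the letters ACGTG, the core of the hypoxia element, where they occur on either strand. The first sequence lies at chr4:150201136-150201385 on the minus strand and the second at chr4:43506776-43507025 on the plus strand.
Car6: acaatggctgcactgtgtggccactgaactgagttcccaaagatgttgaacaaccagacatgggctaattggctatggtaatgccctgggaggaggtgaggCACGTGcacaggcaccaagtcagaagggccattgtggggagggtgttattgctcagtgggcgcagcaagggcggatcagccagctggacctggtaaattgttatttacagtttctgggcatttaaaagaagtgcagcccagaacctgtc
Car9: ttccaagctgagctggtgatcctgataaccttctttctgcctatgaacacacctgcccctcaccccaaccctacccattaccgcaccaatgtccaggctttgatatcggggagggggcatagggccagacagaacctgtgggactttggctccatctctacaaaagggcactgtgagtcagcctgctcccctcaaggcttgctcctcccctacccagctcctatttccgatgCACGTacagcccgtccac

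In Car6 the letters ACGTG stood on both strands, 148 and 149 bases before the start site, and the overlapping matches form the palindrome CACGTG, which is also an E-box. In Car9 they stood on the opposite strand, 18 bases before the start site. The same window of Car4 and Car12 held neither ACGTG nor GCGTG, and none of the 4 windows held TGCAAT, the core bound by C/EBP and CHOP, on either strand. Among all 32851 promoters of the table, 16.6% held ACGTG, 28.2% GCGTG and 7.32% TGCAAT within the same window. A match describes letters only, and the start site used by the intracellular form of Car6 was not looked for.

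Car6, the secreted enzyme, had a higher loess ratio, with slide effects left in, on every exposed array than on any control array. Its log2 ratio in the 5 control arrays was -3.50, -2.49, -2.80, -2.07 and -2.18. The 6 low dose arrays ran from -2.0 over a median of -1.61 to 0.06. The 5 medium dose arrays gave 1.47, -0.78, 0.25, -1.42 and -0.52, and the 6 high dose arrays ran from -0.61 over a median of 0.67 to 1.32. The margin over the controls was narrowest at the low dose, and the groups of neighbouring doses overlapped. Before loess, low dose replicates 2 and 6, at -2.55 and -2.58, lay below the highest control at -2.33. With slide effects taken out, 4 of the 6 low dose arrays lay above every control. In the ratios processed by the authors, low dose replicates 2, 3 and 6 (-1.34, -1.30 and -1.73) lay below control replicate 4 (-1.24).

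**Figure D1:**
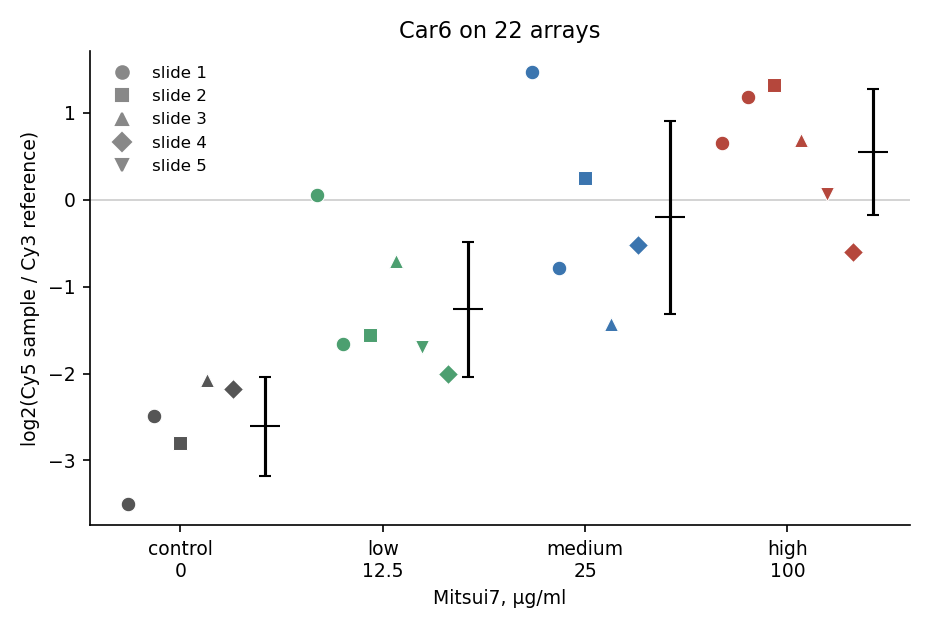
Log2 ratio of Cy5 (sample) to Cy3 (reference) for Car6 on each of the 22 arrays (y axis), by dose of Mitsui7 in µg/ml (x axis). Marker shapes give the slide, and the bar beside each group is the mean ± SD; the means are -2.61, -1.26, -0.20 and 0.55 from control to the high dose.

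The controls had a mean of -2.61 ± 0.57 (SD, n = 5) and the low dose arrays one of -1.26 ± 0.78 (SD, n = 6). The mean of the medium dose arrays was -0.20 ± 1.11 (SD, n = 5) and that of the high dose arrays 0.55 ± 0.72 (SD, n = 6). With slide as a term, the log2 ratio of Car6 exceeded that of controls by 1.44 (SE 0.45) in the low dose group, 2.41 (SE 0.46) in the medium and 3.25 (SE 0.45) in the high dose group, which is 2.71-fold, 5.30-fold and 9.52-fold. Between doses, the medium dose was above the low dose by 0.97 (SE 0.45), the high dose above the medium dose by 0.84 (SE 0.45) and the high dose above the low dose by 1.81 (SE 0.42). Of the 6 high dose arrays 5 lay above every low dose array, and 0 lay above every medium dose array. In RNA from a whole culture, more cells with Car6 RNA and more Car6 RNA per cell cannot be told apart.

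The signal behind these ratios was low in controls. Before normalisation, the Cy5 signal of the Car6 spot was 94, 86, 280.5, 241 and 95 in the 5 control arrays, where the limit of the negative control spots was 75.2 to 111. It was detected on all 22 arrays, but the scanner software placed it well above background in only 2 of the 5 controls (replicates 3 and 4), against 6 of 6, 5 of 5 and 6 of 6 exposed arrays. The highest Cy5 signal, 3482.5 in high dose replicate 3, was 40.5 times the lowest. The Cy3 signal of the reference at the same spot spanned 503 to 1421, a factor of 2.83. The normalisation also moved single ratios, by -0.75 to 1.23 between arrays, and most in high dose replicate 2, from -0.05 to 1.19. A level so close to background in 3 of the 5 controls makes the control mean, and with it each fold change, less certain than the SE alone shows.

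**Figure D2:**
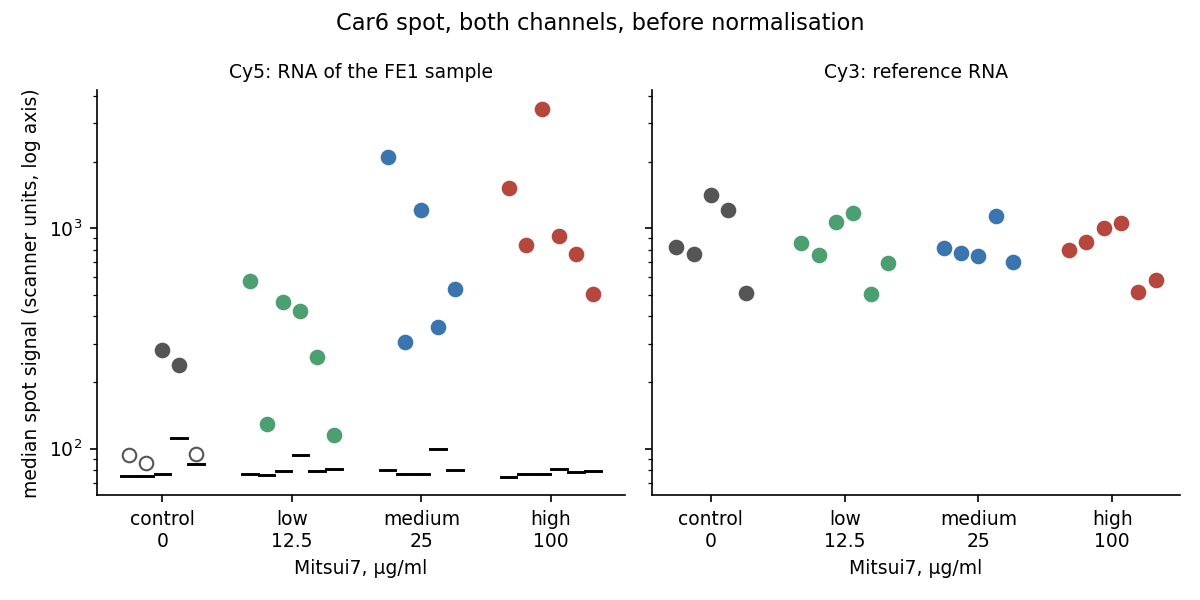
Median signal of the Car6 spot in scanner units on a log axis (y), for Cy5 (left, RNA of the sample) and Cy3 (right, reference RNA), by dose of Mitsui7 in µg/ml. Open circles are spots that the software did not place well above background, and short black lines are the limit of the negative control spots on each array; Cy5 spans 86 to 3482.5 and Cy3 spans 503 to 1421.

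Arrays were hybridised on 5 slides, 4 of which held all groups. Within these 4 slides the high dose was above control by 3.91, 4.12, 2.76 and 1.57 on slides 1 to 4, and the low dose by 2.19, 1.24, 1.36 and 0.18. The medium dose was above control by 3.34, 3.05, 0.64 and 1.66. The order control, low, high was thus the same on every slide that held all 4 groups, with the low dose on slide 4 barely above its control. The medium dose fell below the low dose on slide 3 (by -0.72, medium minus low) and above the high dose on slide 4 (-0.09, high minus medium). Slide 5, without controls, had the high dose above the low dose by 1.76.

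The size of the Car6 change depended on which arrays and slides were used. Without low dose replicate 1 and medium dose replicate 2 together, the changes against control were 1.20, 2.60 and 3.23. Without slide 1 they were 0.94, 1.79 and 2.80, and 0 probes of the whole table were called at the medium dose against 1674 with it. When the replicate number, not the slide, was the block, the change was 1.54 in the low dose group.

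None of the other 7 members was called in any comparison by limma's test. Of these 7, 4 (Car4, Car9, Car12 and Car13) were detected in enough arrays to be called, and 1 of 7 (Car12) had an unadjusted p under 0.05 at each dose against control. Over all probes detected in enough arrays, 3.26% were called at the low dose, 5.57% at the medium dose and 7.55% at the high dose, so 0 of 4 genes is no result about these members. Of the same probes, 6466 of 30677, 7457 of 30049 and 8852 of 32321 had an unadjusted p under 0.05 in limma. The 1 of 4 (Car12) at that level is no result about the members either. With Car6, 0, 1 and 1 of 5 testable members were called, a count from which nothing is read because Car6 chose the family. Between doses, 0% of probes were called for medium against low and for high against medium (2309 and 1653 probes with an unadjusted p under 0.05 in limma), and 0.248% for high against low, and 0 of the 7 members had an unadjusted p under 0.05 in any of the 3. The median change of the 4 detected members was -0.16, -0.32 and -0.17 at the 3 doses, beside 0.01, 0.01 and 0.01 over all detected probes. All 4 had a value below 0 at each dose, but the doses share the same 5 controls, so these signs are not independent. Of 43 alternatives, the sign turned under 5 for Car13 at the low dose and 7 for Car4 at the high dose. It turned under at most 1 for the other values.

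**Figure D3:**
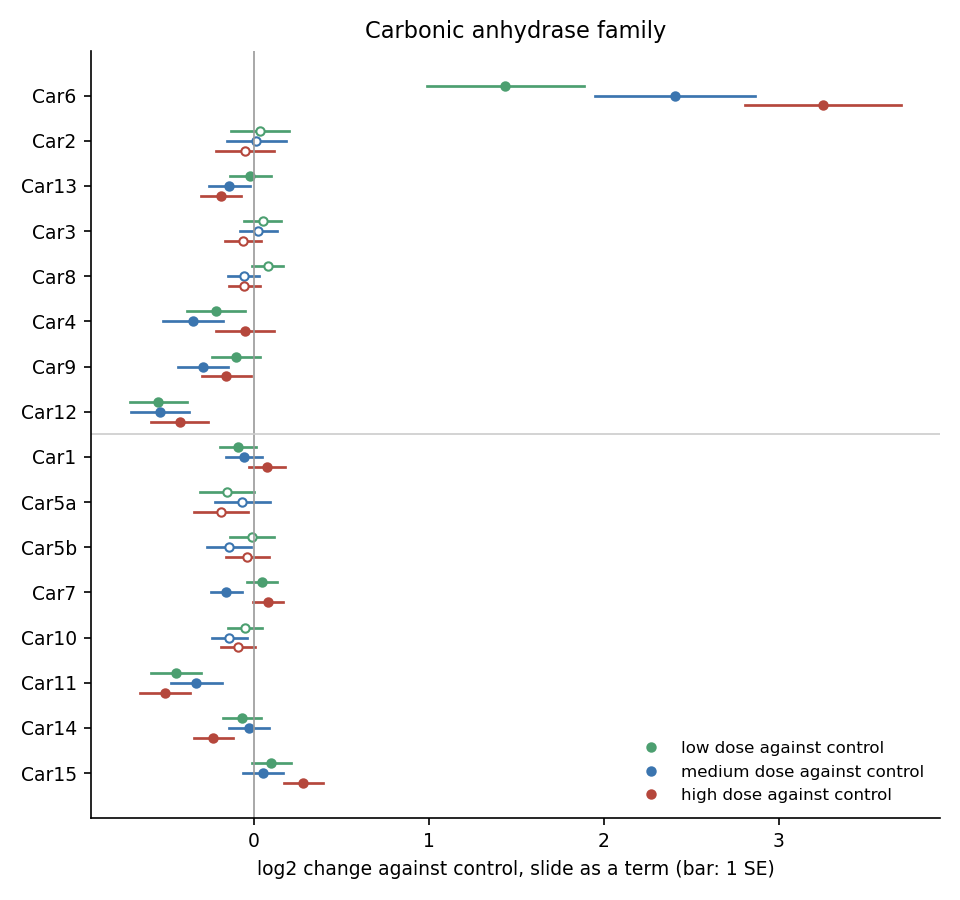
Change against control on the log2 scale (x axis) for the 16 carbonic anhydrase genes (y axis), with the 8 members above the grey line; green, blue and red are the low, medium and high dose, bars are 1 SE, and open circles mark genes not detected in enough arrays to be called. Car6 reaches 3.25 at the high dose, and the other 15 genes stay between -0.54 and 0.28.

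Car12, the membrane enzyme with its active site outside the cell, had the largest change among the 8 members after Car6, and in the other direction. The 5 control arrays gave 0.86, 0.31, 0.00, -0.26 and -0.17. The low dose arrays ran from -0.56 over a median of -0.47 to -0.05, the medium dose arrays gave 0.15, -0.38, -0.48, -0.86 and -0.36, and the high dose arrays ran from -0.64 over a median of -0.26 to -0.08. The controls were the widest group, and 5 of 6 low dose arrays, 4 of 5 medium dose arrays and 3 of 6 high dose arrays lay below every control. The change was -0.54 (SE 0.16, adjusted p = 0.0772), -0.53 (SE 0.17, adjusted p = 0.0715) and -0.42 (SE 0.16, adjusted p = 0.142) in limma, with 95% intervals from -0.89 to -0.20, -0.88 to -0.19 and -0.76 to -0.08. It was well above background on all 22 arrays.

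Whether Car12 was called depended on single arrays and on the source of the ratio. It was called lower at the low dose without control replicate 4 (-0.65, adjusted p = 0.0495), without low dose replicate 4 (-0.67, adjusted p = 0.0219) or without slide 3, which holds both (-0.73, adjusted p = 0.0114), and at the medium dose without control replicate 4 (-0.64, adjusted p = 0.0406) or without medium dose replicate 1 (-0.63, adjusted p = 0.0431), all by limma. With all arrays it was also called at the low dose on the log ratio of the scanner (-0.68, adjusted p = 0.0464). With the replicate number as the block, its change of -0.53 at the medium dose had an adjusted p of 0.0356 in limma but stayed under the 1.5-fold limit. Other removals made the fall smaller. Without slide 1 it was -0.23 at the low and -0.19 at the high dose. Leaving out each array in turn gave -0.67 to -0.40, -0.64 to -0.39 and -0.53 to -0.28 at the 3 doses. Without low dose replicate 1 and medium dose replicate 2 together it was -0.49, -0.48 and -0.42 (adjusted p = 0.18, 0.149 and 0.151 in limma). Within slides, the low dose lay below its control on slides 1, 2 and 4 (-1.03, -0.49 and -0.39) and above it on slide 3 (0.21). The high dose did the same, with -0.75, -0.29 and -0.47 on slides 1, 2 and 4 and 0.16 on slide 3. The medium dose lay below control on all 4 slides, from -0.70 to -0.19. Between doses the changes of Car12 were 0.01, 0.11 and 0.12, each under its SE of 0.15 to 0.16.

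Car9, the hypoxia-responsive membrane enzyme, was well above background on all 22 arrays with ratios far below the reference. Controls gave -2.51, -1.94, -2.70, -2.87 and -2.13, the low dose ran from -3.01 over -2.48 to -2.20, the medium dose gave -2.73, -2.32, -2.88, -3.01 and -2.65, and the high dose ran from -3.22 over -2.44 to -2.27. The groups overlapped. Between samples of the same number, the medium dose lay below control in 5 of 5 pairs and the low and high dose in 4 of 5 each. Its changes were -0.10, -0.29 and -0.16 (adjusted p = 0.834, 0.355 and 0.689 in limma), and the 95% intervals ran from -0.39 to 0.19, -0.59 to 0.01 and -0.45 to 0.14, so an increase beyond 0.19 lies outside each of them.

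**Figure D4:**
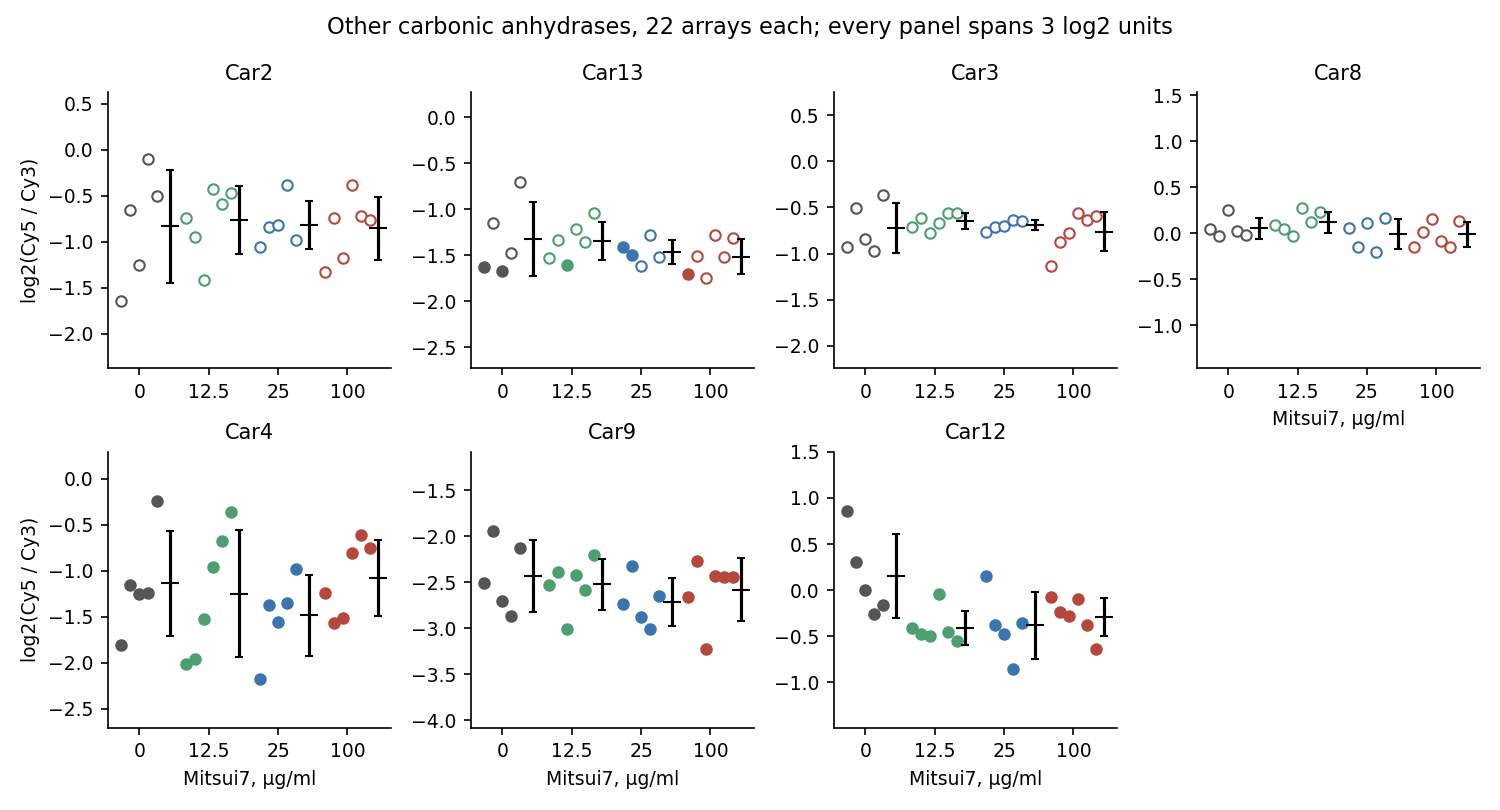
Log2 ratio of Cy5 to Cy3 (y axes, each spanning 3 log2 units) on every array for the other 7 members, by dose of Mitsui7 in µg/ml (x axes), with the mean ± SD beside each group. Filled circles are spots well above background: on all 22 arrays for Car4, Car9 and Car12, on 6 for Car13, and on 0 for Car2, Car3 and Car8.

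Car4, the membrane-anchored enzyme of the lung capillaries, gave a strong signal on all 22 arrays. Its ratios were -1.81, -1.15, -1.25, -1.25 and -0.24 in controls, -2.01 to -0.36 (median -1.24) at the low dose, -2.18, -1.38, -1.56, -1.35 and -0.98 at the medium dose, and -1.57 to -0.61 (median -1.02) at the high dose. The groups overlapped. Between samples of the same number, the medium dose lay below control in 5 of 5 pairs, the low dose in 4 and the high dose in 3. The changes were -0.21, -0.35 and -0.05 (adjusted p = 0.649, 0.346 and 0.948 in limma), with the widest interval at the medium dose from -0.70 to 0.01. The reference channel of this spot varied more than the sample channel: Cy3, the same RNA on every array, spanned 1759 to 43640, a factor of 24.8, while Cy5 spanned 1075.5 to 5631. The part of that variation in the ratio was not tested. The second probe of Car4 was detected on only 1 of 22 arrays and so reads nothing that can be set beside the first.

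Of the cytosolic members, Car13 was detected on 16 arrays and well above background on 6. Its ratios were -1.63, -1.14, -1.67, -1.48 and -0.71 in controls, and its changes -0.02, -0.14 and -0.19 (adjusted p = 0.968, 0.695 and 0.474 in limma). Car2, the widespread cytosolic enzyme, was detected on 5 arrays and well above background on 0, with a Cy5 signal of 63 to 85. Car3, known from muscle and fat, and Car8 on both of its probes were detected on 0 arrays, with Cy5 signals of 55 to 76 for Car3 and of 58 to 78.5 over the probes of Car8. For Car2, Car3 and Car8 the arrays give only that the probes were not well above background, with no fold change.

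The spread between arrays of a group differed between members. After group and slide were fitted, the residual SD of Car6 was 0.85, that of Car12 0.29, Car4 0.30, Car9 0.24 and Car13 0.19. The largest gap within a Car6 group, between medium dose replicates 1 and 4, was thus wider than any change of another member.

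The rest of the family gave 0 calls too, which at 3.26%, 5.57% and 7.55% of all probes called is no result about 5 genes. Of the 8 other carbonic anhydrase genes on the array (Car1, Car5a, Car5b, Car7, Car10, Car11, Car14 and Car15), 5 were detected in enough arrays and 0 were called by limma in any comparison, with 1, 1 and 2 of 8 at an unadjusted p under 0.05 at the 3 doses against control. Over all probes detected in enough arrays, 6466 of 30677, 7457 of 30049 and 8852 of 32321 were under 0.05 as well. Car11, a secreted relative without catalytic activity, passed the p threshold at the high dose (-0.51, SE 0.14, adjusted p = 0.0324) but not the 1.5-fold limit. Its ratios in the 4 controls with a value were -1.81, -1.18, -0.97 and -0.77, and at the high dose they ran from -1.97 over -1.52 to -1.11. The fourth arrays of the control and low dose groups, both on slide 3, have no value because the spot was marked as an outlier. Car15 had 0.10, 0.05 and 0.28 (adjusted p = 0.78, 0.908 and 0.153) and Car14 had -0.07, -0.03 and -0.23 (adjusted p = 0.867, 0.96 and 0.285). Car1 had -0.09, -0.06 and 0.08 and Car7 had 0.05, -0.16 and 0.08, each with an adjusted p of at least 0.447. The mitochondrial enzymes Car5a and Car5b and the inactive Car10 were well above background on 0 arrays.

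The transporters that carry the products of the reaction showed 0 calls as well, again beside 3.26%, 5.57% and 7.55% over all probes, so the count says little about them. Of 23 genes for bicarbonate, proton and lactate transport (the Slc4, Slc26, Slc9 and Slc16 families and Cftr), 15, 13 and 15 were detected in enough arrays at the 3 doses against control and 0 were called at any dose by limma. Their median change was 0.08, -0.09 and -0.01. Slc4a7, a sodium-bicarbonate cotransporter, had differences of 0.31, 0.37 and 0.57 (adjusted p = 0.566, 0.436 and 0.0949), and the lactate exporter Slc16a3 of 0.08 and -0.16 at the low and medium dose, with an adjusted p of at least 0.838 at all 3.

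Car9 and Car12 are known hypoxia targets, and 19 other genes of that response did not move one way. At the high dose 2 of the 18 detected in enough arrays were called higher and 6 lower, the medium dose gave the same counts, and the low dose 1 and 0. Over all probes, 3.26%, 5.57% and 7.55% were called at the low, medium and high dose. Of these probes 406, 798 and 1073 were higher and 595, 876 and 1367 lower. Ndrg1, a hypoxia and stress gene, rose by 1.16, 1.27 and 1.55 (adjusted p at most 9.81e-06), and Vegfa, the vascular growth factor, by 0.61 and 0.65 at the upper doses (adjusted p = 0.000617 and 0.000135); its 0.55 at the low dose was under the 1.5-fold limit. The prolyl hydroxylase subunits P4ha2 and P4ha1, which modify collagen, fell by 1.31 and 1.18 at the high dose (adjusted p = 0.000623 and 1.92e-05). The other genes called lower there were Pdk1 (-1.13), Bnip3 (-0.88), Ankrd37 (-0.79) and Pfkfb4 (-0.68), with an adjusted p of at most 0.0289 in limma. Each of these was also called lower at the medium dose. Slc2a1, the glucose transporter, had -0.03, -0.19 and -0.27 (adjusted p = 0.973, 0.767 and 0.551). The median change of the list was -0.18, -0.36 and -0.36, beside 0.01 at each dose over all detected probes.

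Most genes of the ATF4 and CHOP stress list were called higher after exposure. Of 15 genes, 10, 12 and 12 were called higher at the 3 doses and 0 lower, with a median change of 0.90, 1.01 and 1.09. Over all probes detected in enough arrays, 3.26%, 5.57% and 7.55% were called, with a median change of 0.01 at each dose. Ddit3, which encodes CHOP, rose by 1.28, 1.56 and 1.90 (adjusted p = 1.44e-06, 8.86e-08 and 2.14e-09). Atf3, a stress-induced transcription factor, rose by 2.47, 2.72 and 3.17, the glutathione-degrading enzyme Chac1 by 1.78, 1.93 and 2.37, and the pseudokinase Trib3 by 1.56, 1.98 and 2.09 (adjusted p at most 0.000252). Atf4 itself rose by 0.78 and 0.79 at the medium and high dose (adjusted p = 0.00759 and 0.00238) and had 0.30 (adjusted p = 0.416) at the low dose. Between doses the list gave 0 calls for medium against low and for high against medium and 1 for high against low. The shares over all probes were 0%, 0% and 0.248%. The values of this list and those of Car6 come from the same arrays against the same 5 controls. A link between them was not tested.

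**Figure D5:**
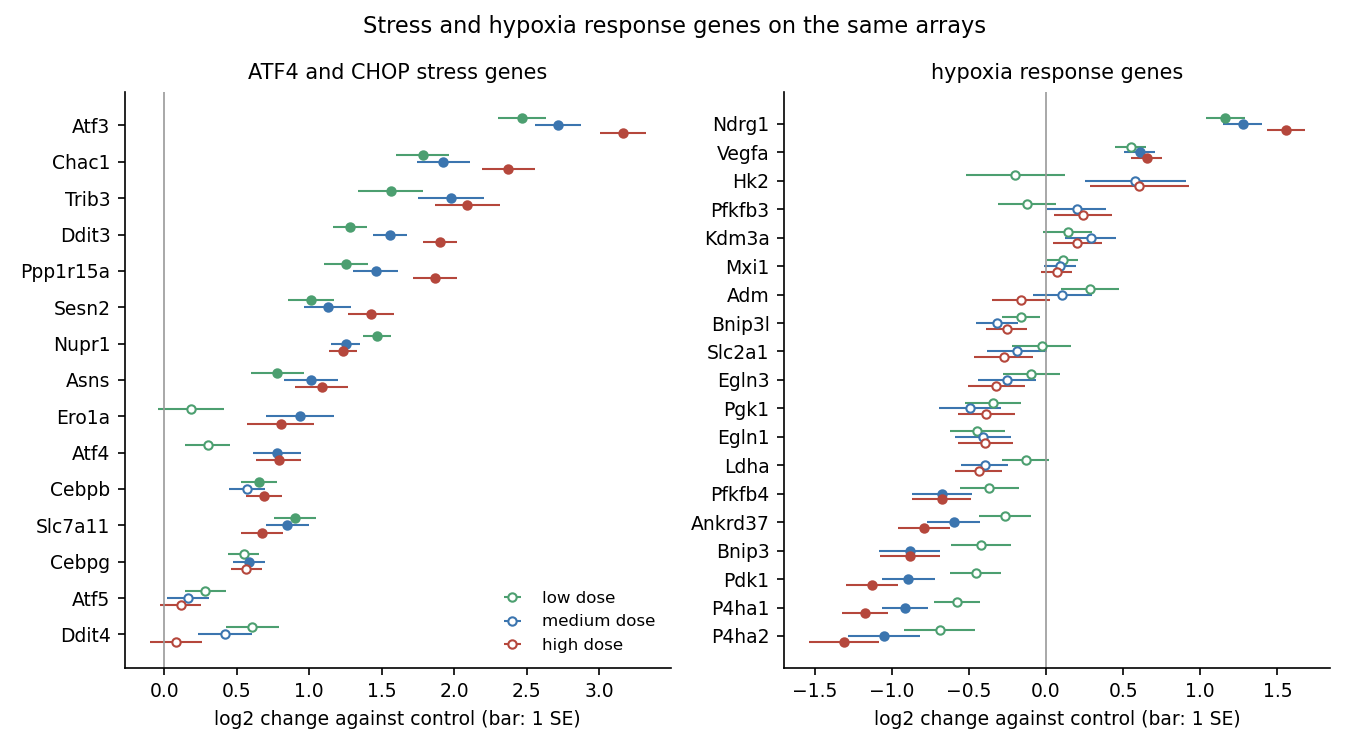
Change against control on the log2 scale (x axes, bars 1 SE) for the 15 ATF4 and CHOP stress genes (left) and the 19 hypoxia response genes (right); green, blue and red are the low, medium and high dose, and filled circles mark called genes. On the left 12 of 15 are called higher at the high dose, and on the right 2 are called higher and 6 lower.

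The genes whose slide-adjusted log2 ratio ran closest to Car6 over the 22 arrays, among 16046 named probes that a group showed on 4 or more arrays, were Sprr2h (Pearson r = 0.973), a cornified envelope protein of squamous epithelia, Fam171b (r = 0.957), Ramp2 (r = 0.948), a receptor partner for adrenomedullin, Angptl6 (r = 0.944) and Gadd45a (r = 0.936), a stress and DNA damage gene. Their changes at the high dose were 2.42, 2.45, 1.26, 2.24 and 1.74. Those closest to Car12 were Golm1 (r = 0.862), Fras1 (r = 0.858), Map3k1 (r = 0.817), H2ac19 (r = 0.816) and Fam219b (r = 0.815), with changes at the high dose of -0.33, -0.71, -0.37, -0.28 and -0.14. The 22 arrays share the reference RNA, the slides and the 4 groups, so these correlations describe the arrays as a whole.

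Markers of other cells moved on the same arrays. The 7 fibroblast markers, of which Col1a1, Col1a2, Col3a1, Dcn, Pdgfra and Postn were well above background on 20 to 22 arrays and Lum on 2, gave 5, 5 and 6 genes called lower and 0 called higher at the 3 doses. Of the 7, 6 were detected in enough arrays at each dose. The share called over all probes was 3.26%, 5.57% and 7.55%. At the high dose Dcn, a matrix proteoglycan, fell by 2.27 (adjusted p = 0.000117), Col3a1, a fibrillar collagen, fell by 1.70 (adjusted p = 2.24e-07) and Pdgfra, a growth factor receptor of mesenchyme, fell by 1.53 (adjusted p = 5.49e-09). The sum of the 7 ratios was 8.48 to 12.3 in controls and, in order of dose, 4.52 to 7.80, 4.24 to 5.27 and 3.61 to 5.09, so every exposed array lay below every control. Its part in the values of Car6 and Car12 was not tested. Of the 7 epithelial markers, 5 were detected in enough arrays, and 1 (Krt7, by 0.79 and 0.85 at the medium and high dose) fell and 0 rose. The sum of the 7 epithelial ratios was 2.79 to 3.79 in controls and 2.24 to 2.80 at the high dose. Cdh1, detected on 0 arrays, and Cldn4, well above background on only 5, enter this sum with mean control log2 ratios of -0.32 and 0.28. Krt7 enters it with -0.31, but Krt8, Krt18 and Krt19 with only -4.35, -5.62 and -4.91, so the sum says little about these 3. The 5 markers of salivary serous cells, the cells best known for Car6, were well above background on 0 of 22 arrays. Of the 5 markers of endothelium, the lung cells best known for Car4, 2 were detected in enough arrays and 0 were called. These 2, Kdr and Pecam1, were well above background on 22 and 19 arrays. Of the 5 adipocyte, 5 skeletal muscle, 6 alveolar and airway secretory and 3 leukocyte markers on the array, 0, 1 (Acta1, -1.01, adjusted p = 0.0155), 0 and 0 were called at the high dose. Only 1, 2, 3 and 3 of them were detected in enough arrays there, so 0 calls is no result about these cells. The sum of the 6 alveolar and airway secretory ratios was 4.62 to 6.08 in controls, 5.02 to 6.80 at the low dose, 6.03 to 12.8 in the medium dose group and 6.17 to 8.10 in the high dose group, where every array lay above every control. Sftpc, a surfactant protein, had 0.61 and Scgb1a1, the club cell secretory protein, 0.49 at the high dose (adjusted p = 0.154 and 0.0505 in limma). Aqp5 of the same list went the other way there, with -0.37 (adjusted p = 0.12 in limma). Sftpc was well above background in only 2 of 5 controls. Nkx2-1, Sftpa1 and Sftpb were so on 0 arrays, yet they enter the sum. The part of these markers in the values of Car6 was not tested.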

How the data were processed

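The deposited scanner files give, per spot and channel, the median intensity of the spot and of its local background, not normalised by the authors, with the marks for outlier spots and signal well above background (other columns, used as deposited). They also hold a log10 ratio, corrected by the scanner software, and the series matrix gives log2 ratios that the authors had processed by a normalisation not given in the sources used here. Its 22 columns each correlated best with their own array (median r = 0.985, lowest 0.840), with column medians of 0.004 to 0.027. Per the file headers, the software was Feature Extraction 10.7.3.1 on a G2505C scanner at 3 µm with a grid on mm9; the methods name other versions.

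From these, control spots were left out, spots marked as outliers were set missing, log2 (Cy5/Cy3) of the median signals was normalised by loess within arrays (59305 spots), and the median over the spots of a probe was taken. Cy5 carried the sample on every array, so a dye bias cancels only between groups. Symbols came from a table for GRCm38.p6 by accession (26413 of 55681 probes matched); a gene is given by its brightest probe. Detection meant a Cy5 signal over a limit from the 308 negative control spots, their 5% trimmed mean and 3 trimmed SDs. Intensities are not counts, so the number of arrays limits the precision. The model, fitted in R 4.3.3 by lmFit and eBayes of limma 3.58.1, held group and slide for all 22 arrays, in place of the shrinkage test of the methods, which was not installed. The Benjamini-Hochberg adjustment covered all probes. Slides were read from the array barcodes. Steps were tested on simulated data.

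The members, gene lists and tests were chosen with earlier results of these data known. Named genes were all family members and the 5 most like Car6 and Car12. Of each list, the 3 called genes with the largest change at the high dose were named, plus Ddit3, Atf4, Slc2a1 and Vegfa. Slc4a7, Slc16a3, Pdk1, Bnip3, Ankrd37, Pfkfb4, Sftpc, Scgb1a1 and other markers outside this rule were named after their values were seen. The sample numbers of the labels pair the arrays: in all 31 pairs of the same number the deviations from the group means correlated (r from 0.177 to 0.817, 27 pairs on the same slide), so the fit with the replicate block was run too. Array pairs had at most 2.36% of spots equal and r of at most 0.974, so none was taken as a duplicate. Alternatives covered normalisation, background, outlier marks, ratio source, slide and block terms, filters, thresholds and leaving out arrays and slides. Proteins were not analysed here, and 1 gene of a list is not reported here.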

Additional observations from a re-analysis of the deposited data

Results flagged for a closer look

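Of 32 groups of arrays tested over the 8 members, 2 held an array far from the others of its group, where chance alone flags about 1 in 20 groups. Car12 in low dose replicate 4 had a log2 ratio of -0.048, above the other 5 low dose arrays, which lay between -0.56 and -0.42. Car8 in control replicate 3 had a log2 ratio of 0.25, above the other 4 controls at -0.03 to 0.05, with the probe detected on 0 arrays.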

How the results depend on the processing

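The change of Car6 against control kept its direction under all 38 alternatives, with 0.94 to 2.21 at the low, 1.79 to 3.39 at the medium and 2.80 to 4.29 at the high dose. It moved by more than the spread between replicates with the ratio computed by the scanner software (3.39 at the medium and 4.29 at the high dose) and on slide 1 alone (3.34 at the medium dose, with no detection filter). Leaving out each array in turn gave 1.14 to 1.74, 2.00 to 2.80 and 2.95 to 3.56.

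Counts that hold Car6 are descriptions, since Car6 chose the family. At the low dose 1 family member in place of 0 was called with the scanner log ratio (Car12), with the replicate block in place of slide (Car6) and without slide 3 (Car12), and 0 to 1 with single arrays left out. At the medium dose 0 in place of 1 were called without slide 1 and on slide 1 alone with no detection filter, and 1 to 2 with single arrays left out. At the high dose 0 in place of 1 were called on slide 1 alone with no detection filter. Between the high and the low dose 1 in place of 0 (Car6) was called with the replicate block, with only the 2 groups compared and without the 2 arrays that stand apart, and 0 to 1 with single arrays left out. The replicate block changed no other call of a member. Car2, Car3, Car4, Car8, Car9 and Car13 were not called under any alternative. The counts over all probes moved with median centring in place of loess (424, 607 and 1297 at the 3 doses, in place of 1001, 1674 and 2440), with a 2-fold threshold (263, 446 and 715) and with no fold threshold (1890, 2934 and 4462); with only the 2 groups compared the low dose gave 655. Slide 1 alone with no detection filter gave 7, 14 and 179, and without slide 1 the medium dose gave 0. Between the high and the low dose the counts, 82 as reported, ran from 38 to 195 with single arrays left out. The causes were not tested. Signal over background limits Car6 in 3 controls and Car13 on 16 arrays, and leaves Car2, Car3 and Car8 without a measured level.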
